A study of Homo sapiens with 92 samples.

Results

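The genes described here are 7 human transcription factors that drive epithelial-mesenchymal transition (EMT): SNAI1, SNAI2, TWIST1, TWIST2, ZEB1, ZEB2 and PRRX1. Their rows are taken by symbol, and they are 7 of the 48905 genes kept from the deposited tables. The 7 genes were chosen with earlier results of these data known. The series follows new RNA after a compound is given to degrade the cohesin loader NIPBL. The cells were leaving mitosis, were already in interphase, or were neurons and cardiomyocytes. New RNA was read by SLAM-seq: cells took up 4-thiouridine (4sU, 100 µM), iodoacetamide alkylated it, and reads from labelled RNA then carry T-to-C conversions. The value used throughout is the converted reads of a gene per M (mega) of a library's converted reads, called CPM, after TMM scaling.

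Most libraries came from clone NIPBL-D7, a single clone of hTERT RPE-1, an immortalised line of human retinal pigment epithelium. All of its groups, DMSO included, carry mGreenLantern-P2A-FKBP12(F36V)-NIPBL, so the vehicle cells have the tagged protein too. The compound dTAGV-1 recruits the VHL ubiquitin ligase to the FKBP12(F36V) degron, and DMSO is its vehicle. In the mitosis series, cells synchronised with 2 mM thymidine stood in 20 ng/ml nocodazole for 120 min with dTAGV-1 or DMSO, were shaken off and were released into the same agent. A 15 min pulse of 4sU was used for the time course. Release for 0 min has 4 dTAGV-1 and 3 DMSO libraries, 30 min has 3 of each arm, 60 and 90 min have 4 of each, 120 min has 3 dTAGV-1 and 4 DMSO, and 4, 6 and 8 h have 2 of each. In the release series the agent was given for 30, 60, 90 or 120 min and not during the block, with 3 dTAGV-1 and 3 DMSO libraries at each time. A further 3 libraries per arm and series, also of 120 min, were labelled throughout the 120 min. WTC11 is a human pluripotent stem cell line, used here with an inducible Ngn2, and gave neurons (under SMAD inhibition) and cardiomyocytes (with a ventricular differentiation kit). Whether these cells carry the tagged NIPBL is not stated here, so their changes are given as changes with dTAGV-1. Both cell types received dTAGV-1 or DMSO for 4 h and 4sU for 120 min, with 2 libraries per arm. The cell line field of these libraries names hTERT RPE-1, against their titles and growth protocol, which are used here. The labels do not say whether replicates were separate cultures, so p-values measure the spread between these libraries.

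In EMT, epithelial cells loosen their junctions, lose apical polarity and take on the shape and movement of mesenchymal cells. SNAI1 and SNAI2 (Slug) are zinc finger repressors of the Snail family, and ZEB1 and ZEB2 carry zinc finger clusters on either side of a homeodomain. Both families bind E-boxes and silence epithelial genes such as CDH1, the gene of E-cadherin. TWIST1 and TWIST2 are basic helix-loop-helix factors, and PRRX1 is a paired-related homeobox factor of mesenchyme. Retinal pigment epithelium is known to turn mesenchymal when its cells leave their layer and divide, as in scarring of the retina.

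All positions below are in hg38. SNAI1 (ENSG00000124216) lies at chr20:49982999-49988886 on the plus strand and PRRX1 (ENSG00000116132) at chr1:170662728-170739419, also on the plus strand. TWIST2 (ENSG00000233608) occupies chr2:238848032-238910543 (plus) and ZEB2 (ENSG00000169554) chr2:144384081-144524583 (minus). ZEB1 (ENSG00000148516) spans chr10:31318495-31529814 (plus). For TWIST1 (ENSG00000122691, minus strand) the files give chr7:19020991-19117672, a span of 96.7 kb where RefSeq has 4.59 kb, so its reads may include other transcripts of that stretch. The strand setting of the counting is not given in the sources used here. ZEB1 overlaps its antisense gene ZEB1-AS1 by 1953 bases, so reads of the pair cannot be told apart there. ZEB1-AS1 had 6630 converted reads over the 92 libraries and was called in none of the drug comparisons.

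RefSeq (GRCh38.p14) gives promoter windows, from 250 bases before to 50 after a start, for 4 of the 7 genes. The windows of ZEB1, ZEB2 and TWIST2 are printed because these genes moved in opposite directions at 4 to 8 h. ZEB1 has 7 such windows, of which the most upstream is printed, and the other genes have 1 each. They lie at chr10:31318167-31318466 (plus), chr2:144520070-144520369 (minus) and chr2:238847835-238848134 (plus), and each is written from 5′ to 3′. Capitals mark CAGGTG or CACCTG, the same E-box read on either strand, which Snail and ZEB proteins are known to bind.
ZEB1: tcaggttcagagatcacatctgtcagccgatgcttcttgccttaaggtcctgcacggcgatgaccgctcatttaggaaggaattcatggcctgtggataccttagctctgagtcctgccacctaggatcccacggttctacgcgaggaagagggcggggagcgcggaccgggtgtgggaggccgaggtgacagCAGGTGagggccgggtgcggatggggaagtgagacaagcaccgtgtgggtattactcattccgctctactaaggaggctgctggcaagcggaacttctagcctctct
ZEB2: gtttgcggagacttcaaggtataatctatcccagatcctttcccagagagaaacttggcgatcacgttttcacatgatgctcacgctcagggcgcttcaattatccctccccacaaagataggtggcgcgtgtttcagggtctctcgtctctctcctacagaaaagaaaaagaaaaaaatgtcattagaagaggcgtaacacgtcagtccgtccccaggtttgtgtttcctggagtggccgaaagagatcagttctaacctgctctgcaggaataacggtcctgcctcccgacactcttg
TWIST2: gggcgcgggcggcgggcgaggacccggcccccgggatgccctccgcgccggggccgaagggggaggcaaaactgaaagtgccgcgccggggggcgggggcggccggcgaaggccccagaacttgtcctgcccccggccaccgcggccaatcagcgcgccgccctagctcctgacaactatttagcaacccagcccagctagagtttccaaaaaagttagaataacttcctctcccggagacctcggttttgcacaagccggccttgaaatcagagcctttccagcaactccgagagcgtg
The printed ZEB1 window holds 1 such E-box, 57 bases before its start, the ZEB1 window at chr10:31318966-31319265 holds 3, and the other 5 hold none. The ZEB2 and TWIST2 windows hold none and neither does that of PRRX1. Of 35116 promoter windows of the same length, 20.6% hold at least 1, so these matches describe the letters only. The ZEB2 window sits 4464 bases from the gene start that the files give.

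Each library held 0.419 to 35.4 M converted reads and 10.7 to 114 M reads in all. Because dTAGV-1 removes protein and not transcript, the RNA of NIPBL checks no label, and no library without 4sU is used here, so the background of conversion is not known. The DMSO library 3 at 120 min after mitosis was shallow, and 13.5% of its converted reads fell on 10 genes, against 3.44% to 3.75% in the other 3 of its group. In DMSO of the mitosis series, new RNA of the mitotic kinase gene CDK1 was 308 ± 74.7 CPM (SD, n = 3) at 0 min, 285 ± 27.6 (n = 3) at 30 min and 13.1 ± 4.83 (n = 4) at 120 min, scaled by library totals alone. In DMSO of the release series it was 5.33 ± 2.57 CPM (n = 3) at 30 min, below its means of 13.5, 8.07 and 8.43 CPM at 4, 6 and 8 h of the mitosis series (n = 2 each). The minutes of the release series are therefore minutes in the agent, the time since mitosis is not given by the labels, and both series differ in cell cycle state as well as in when the drug was given.

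The first question is how new RNA of the 7 genes returns after mitosis with and without NIPBL. SNAI2 (ENSG00000019549), a short gene of 4.05 kb on chromosome 8, was the 1 gene called between the arms. Under dTAGV-1 its libraries held 0, 2.66, 1.06 and 2.37 CPM before release (0 min), 2.23, 1.06 and 4.61 CPM by 30 min, 1.05, 1.54, 4.86 and 2.83 CPM by 60 min, 4.08, 1.34, 3.38 and 2.88 CPM by 90 min, and 0.947, 4.76 and 2.46 CPM by 120 min. Under DMSO they held 2.91, 2.01 and 1.82 CPM before release, 2.03, 2.35 and 1.17 CPM by 30 min, 2.57, 7.01, 4.09 and 4.37 CPM by 60 min, 15.4, 37.1, 21.8 and 26.2 CPM by 90 min, and 30.9, 48.3, 58.2 and 35.6 CPM by 120 min. The arms overlapped up to 60 min, and at 90 and 120 min every dTAGV-1 library lay below every DMSO library.

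Behind those values SNAI2 had 2, 12 and 5 converted reads at 120 min with dTAGV-1, against 47, 91, 35 and 59 with DMSO, so the level with drug is close to the limit of these libraries. The log2 change of dTAGV-1 against DMSO was −0.48 ± 0.70 (SE) at 0 min, 0.45 ± 0.70 at 30 min and −0.82 ± 0.47 at 60 min, none of which passed. At these 3 times edgeR called 0 of 7 members (0 at an unadjusted p under 0.05) and 0% of all genes. SNAI2 fell by 3.12 ± 0.41 on the log2 scale at 90 min (adjusted p = 1.38e-05, edgeR's quasi-likelihood test) and by 3.89 ± 0.46 at 120 min (adjusted p = 1.63e-06). At 90 and at 120 min SNAI2 was the 1 of 7 members called, where 0.282% and 0.584% of all tested genes were called lower. Its drug effect also differed over 30 to 120 min, with adjusted p = 0.0118 in edgeR's test of drug by time, which called 0.0563% of genes. That call was lost without dTAGV-1 replicate 4 at 120 min (adjusted p = 0.0526) and without dTAGV-1 replicate 3 at 30 min (adjusted p = 0.104). Without the shallow DMSO library the 120 min change of SNAI2 was −3.75 ± 0.47 (adjusted p = 2.71e-06).

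The rise itself was tested within each arm, and these tests share their 0 min libraries. In DMSO SNAI2 rose by 3.39 ± 0.52 on the log2 scale at 90 min and by 4.13 ± 0.52 at 120 min against 0 min (adjusted p = 6.62e-06 and 1.33e-07, edgeR). In dTAGV-1 libraries the same steps were 0.76 ± 0.57 and 0.72 ± 0.61, with adjusted p = 0.319 and 0.453.

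SNAI1, the founding Snail repressor, was called higher than at 0 min from 60 min on, in both arms. Under dTAGV-1 it averaged 3.32 ± 2.98 CPM (SD, n = 4) before release, 5.99 ± 3.59 CPM (n = 3) by 30 min, 21.1 ± 7.73 CPM (n = 4) by 60 min, 18.4 ± 4.84 CPM (n = 4) by 90 min and 16.3 ± 3.61 CPM (n = 3) by 120 min. With DMSO it averaged 4.44 ± 2.27 (n = 3), 7.17 ± 0.933 (n = 3), 17.2 ± 3.08 (n = 4), 30.9 ± 9.89 (n = 4) and 31.4 ± 4.55 CPM (n = 4) at those times. The mean was highest at 60 min with drug and at 120 min with DMSO. Against 0 min SNAI1 rose by 2.71 ± 0.41 on the log2 scale at 60 min with dTAGV-1 and by 2.09 ± 0.47 with DMSO (adjusted p = 2.45e-06 and 0.000728, edgeR). At 60 min 2 of 7 members rose with dTAGV-1 (SNAI1 and ZEB2, 0.74 ± 0.28, adjusted p = 0.0368) and 1 of 7 with DMSO, where 23.4% and 22% of all genes did.

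At 120 min SNAI1 had 15.6, 13.1 and 20.2 CPM with dTAGV-1, against 34.2, 31.3, 25.0 and 35.0 CPM with DMSO. The arms did not overlap, and the change was −0.97 ± 0.35 (adjusted p = 0.235, edgeR), short of the threshold. At 90 min it was −0.78 ± 0.31 (adjusted p = 0.689), with overlapping arms.

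The ZEB genes also repress through E-boxes. Late in the course the drug arm of ZEB2 lay above its vehicle arm, and the arms of ZEB1 overlapped at 120 min. ZEB2 had 443, 575, 635 and 558 CPM at 90 min with dTAGV-1, against 301, 378, 379 and 419 CPM with DMSO. At 120 min it had 299, 377 and 263 CPM with dTAGV-1, against 187, 208, 125 and 195 CPM with DMSO. Every drug library lay above every vehicle library at both times, with log2 changes of 0.58 ± 0.28 and 0.80 ± 0.30 that did not pass (adjusted p = 0.889 and 0.279, edgeR). With no filter on low counts the 120 min change was called (0.84, adjusted p = 0.00546). Without the shallow DMSO library, which had the lowest vehicle value of 125 CPM, it was 0.67 ± 0.33 (adjusted p = 0.543, edgeR). The mean of ZEB2 was highest at 90 min in both arms, and against 0 min it rose by 1.42 ± 0.28 with dTAGV-1 and by 0.97 ± 0.31 with DMSO (adjusted p = 0.000213 and 0.022). At 90 min 4 of 7 members rose with dTAGV-1 (SNAI1, ZEB1, ZEB2 and PRRX1) and 4 of 7 with DMSO (SNAI1, SNAI2, ZEB2 and PRRX1), where 19.1% and 14.2% of all genes did. At 120 min ZEB2 differed from 0 min by 0.60 ± 0.30 with dTAGV-1 and −0.06 ± 0.31 with DMSO (adjusted p = 0.152 and 0.904).

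ZEB1 spread widely between replicates at the late times. It had 347, 483 and 512 CPM at 120 min with dTAGV-1, against 247, 456, 180 and 567 CPM with DMSO, so the arms overlapped. Against 0 min ZEB1 rose with dTAGV-1 at 120 min, with a 95% interval of 0.87 to 2.13 on the log2 scale (adjusted p = 0.000583), and by 1.00 ± 0.33 with DMSO (adjusted p = 0.0247). The DMSO call was lost without DMSO replicate 3 or 4 of 0 min, or replicate 2 or 4 of 120 min (adjusted p = 0.0642 to 0.12), and without the shallow replicate 3 of 120 min it was 1.15 (adjusted p = 0.00826).

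PRRX1, a homeobox factor of mesenchymal cells, also rose in both arms. It averaged 55.3 ± 10.6 CPM (n = 3) at 120 min with dTAGV-1 and 70.0 ± 31.7 CPM (n = 4) with DMSO, where the shallow replicate 3 had 25.0 CPM and the others 76.3 to 99.3 CPM. Against 0 min PRRX1 rose by 0.76 ± 0.25 with dTAGV-1 and by 0.99 ± 0.26 with DMSO (adjusted p = 0.0225 and 0.0042, edgeR), and without that library the DMSO change was 1.15 (adjusted p = 0.000198).

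Neither TWIST gene was called at any time in either arm in the main fit. TWIST1, a helix-loop-helix factor of mesoderm and neural crest, averaged 14.7 ± 3.74 CPM (n = 3) at 120 min with dTAGV-1 and 11.1 ± 0.570 CPM (n = 4) with DMSO. TWIST2 averaged 19.9 ± 1.84 CPM with dTAGV-1 and 25.9 ± 10.3 CPM with DMSO. Their 120 min changes against 0 min in DMSO were −0.56 ± 0.33 for TWIST1, whose 120 min libraries all lay below those of 0 min, and 0.38 ± 0.28 for TWIST2. There TWIST1 was called lower when all reads were tested instead of converted ones (−0.69, adjusted p = 0.000445). TWIST2 was called higher with all reads as library size (0.78, adjusted p = 0.0266).

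**Figure D1:**
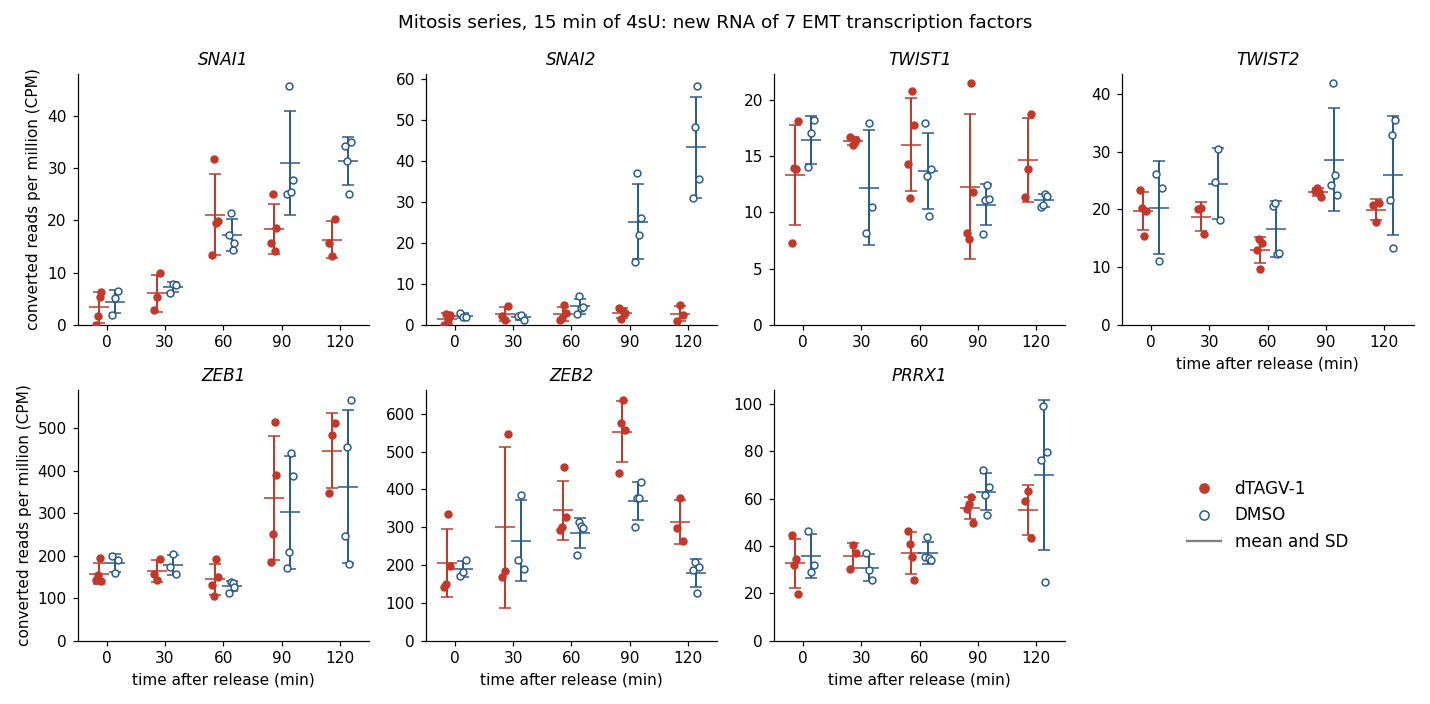
Converted reads (CPM) of the 7 genes in each library of the mitosis series with 15 min of 4sU (vertical axis) by minutes after release (horizontal axis); points are libraries, bars the mean and SD, with dTAGV-1 in red and DMSO in blue. SNAI2 with DMSO reaches 30.9 to 58.2 CPM at 120 min while the drug libraries stay at 0.947 to 4.76.

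By count, 4 of 7 genes rose in DMSO between 0 and 120 min (SNAI1, SNAI2, ZEB1 and PRRX1) where 14.6% of all genes were called higher, and 3 of 7 rose with dTAGV-1 (SNAI1, ZEB1 and PRRX1) where 14% were. Averaged over 30 to 120 min, dTAGV-1 against DMSO called 1 of 7 lower and none higher, against 0.746% and 0.514% of all genes. The called gene was SNAI2, at −1.84 ± 0.28 (adjusted p = 6.25e-05, edgeR). The other averages, of which 4 had an unadjusted p under 0.05, were −0.44 ± 0.19 for SNAI1, −0.38 ± 0.13 for TWIST2, −0.09 ± 0.12 for PRRX1, 0.13 ± 0.16 for ZEB1, 0.34 ± 0.15 for TWIST1 and 0.46 ± 0.15 for ZEB2, with adjusted p of 0.171 or more. With the replicate number as a block ZEB2 was called too, at 0.48 (adjusted p = 0.0224).

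At 4 to 8 h after release 5 of the 7 genes differed between the arms: SNAI2, TWIST2 and SNAI1 were lower with drug, and ZEB1 and ZEB2 were higher. SNAI2 had 1.08 and 0.724 CPM after 4 h, 2.30 and 2.13 CPM after 6 h, and 4.19 and 2.08 CPM after 8 h with dTAGV-1, against 10.9 and 12.2, 17.2 and 17.9, and 14.7 and 17.1 CPM with DMSO. The arms were apart at each of the 3 times, and SNAI2 fell by 3.60 ± 0.44, 2.98 ± 0.35 and 2.35 ± 0.30 on the log2 scale. With 2 libraries per arm, here and in WTC11 cells, arms are easily apart by chance. The share of all genes whose arms are apart is not given, so separation alone decides nothing. The members called lower at each time were 2 of 7, SNAI2 and TWIST2, where 3.59%, 5.02% and 4.7% of all genes were at 4, 6 and 8 h. The average change of SNAI2 was −2.98 ± 0.21 (adjusted p = 2.92e-10, edgeR). SNAI1 was scarce by then, with 1.97 to 4.03 CPM with dTAGV-1 and 3.56 to 7.68 CPM with DMSO over the 3 times. Its arms overlapped at 4 h and were apart at 6 and 8 h, and its average fell by 0.89 ± 0.25 (adjusted p = 0.0131). That call was lost with DESeq2's test (adjusted p = 0.064) and without DMSO replicate 1 at 4 h (adjusted p = 0.0536).

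TWIST2, a helix-loop-helix factor of dermis and other mesenchyme, was lower too. It had 22.6 and 20.3 CPM after 4 h, 25.0 and 31.7 CPM after 6 h, and 35.8 and 35.8 CPM after 8 h with dTAGV-1, against 48.8 and 42.8, 68.0 and 61.4, and 67.2 and 60.2 CPM with DMSO. Every drug library lay below every vehicle library of its time, and TWIST2 fell by 1.09 ± 0.17, 1.18 ± 0.16 and 0.83 ± 0.15 (adjusted p = 0.000169, 2.79e-05 and 0.000744). The arms of TWIST1, its close relative, overlapped at each time: it averaged 22.6 ± 4.88 CPM with dTAGV-1 and 21.7 ± 2.84 CPM with DMSO at 4 h, and 37.7 ± 7.90 and 38.7 ± 3.43 CPM at 8 h (n = 2 each). Over 4 to 8 h the change of TWIST1 was 0.03, with a 95% interval of −0.20 to 0.26, and that of TWIST2 was −1.03 ± 0.09 (adjusted p = 1.77e-08).

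ZEB1 moved the opposite way. It had 582 and 459 CPM after 4 h, 634 and 577 CPM after 6 h, and 884 and 697 CPM after 8 h with dTAGV-1, against 386 and 449, 357 and 454, and 407 and 388 CPM with DMSO. The drug libraries were above the vehicle libraries at each time, by 0.32 ± 0.15 at 4 h (adjusted p = 0.311), 0.58 ± 0.15 at 6 h (adjusted p = 0.0209) and 0.99 ± 0.15 at 8 h (adjusted p = 0.000111). At 6 and 8 h it was the 1 of 7 called higher, where 2.57% and 3.56% of all genes were. The 6 h call was lost without DMSO replicate 1 or either dTAGV-1 replicate of that time (adjusted p up to 0.208), with all reads as library size (adjusted p = 0.355) and when all reads were tested instead of converted ones (adjusted p = 0.293). On average ZEB1 rose by 0.63 ± 0.09 (adjusted p = 1.2e-05, edgeR).

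ZEB2 had 259 and 231, 330 and 317, and 433 and 379 CPM with dTAGV-1 at 4, 6 and 8 h, against 214 and 234, 276 and 291, and 320 and 331 CPM with DMSO. The average rose by 0.21 ± 0.07 (adjusted p = 0.0395, edgeR), a call that 4 other settings and 8 of the 12 fits with 1 library left out did not give (adjusted p up to 0.436). PRRX1 averaged −0.25 ± 0.09 (adjusted p = 0.0657), was lowest relative to DMSO at 4 h (−0.52 ± 0.17) and level with it at 8 h (0.02 ± 0.15). The PRRX1 average was called with the replicate block (−0.24, adjusted p = 0.0489) and when all reads were tested instead of converted ones (−0.46, adjusted p = 0.00246).

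**Figure D2:**
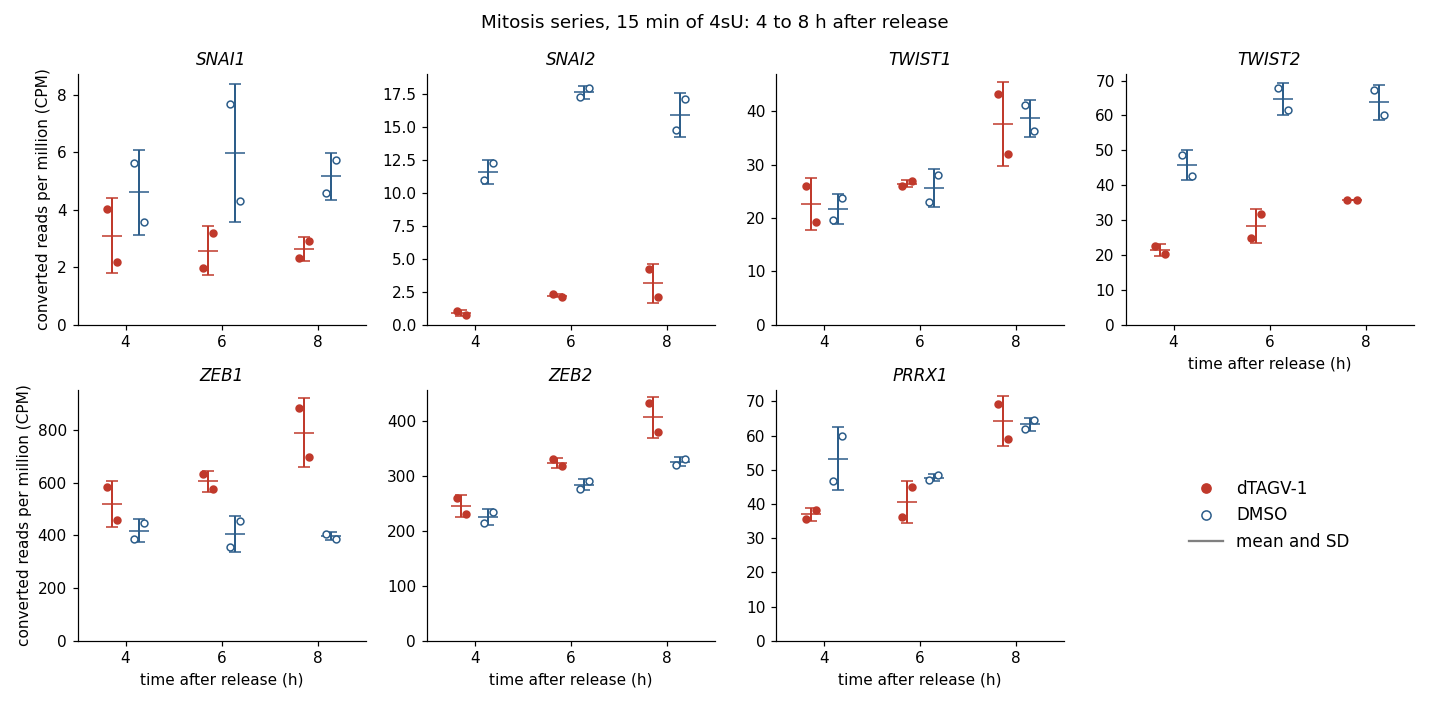
Converted reads (CPM) of the 7 genes in each library at 4, 6 and 8 h after release in the mitosis series; points are libraries, bars the mean and SD (n = 2), with dTAGV-1 in red and DMSO in blue. SNAI2 and TWIST2 are lower with drug at every time, ZEB1 is higher, and the arms of TWIST1 overlap.

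In all, 3 of 7 genes fell and 2 of 7 rose at 4 to 8 h, where 11.1% and 9.35% of all genes did. From 4 to 8 h TWIST1, TWIST2 and ZEB2 rose in DMSO (0.85 ± 0.19, 0.47 ± 0.15 and 0.54 ± 0.13, adjusted p = 0.00485, 0.0369 and 0.00582), 3 of 7 where 7.01% of genes were called higher. With dTAGV-1 6 of 7 rose, against 6.47% of genes: SNAI2 by 1.71 ± 0.54, TWIST1 by 0.72 ± 0.20, TWIST2 by 0.73 ± 0.18, ZEB1 by 0.60 ± 0.15, ZEB2 by 0.73 ± 0.13 and PRRX1 by 0.80 ± 0.16. A difference between those 2 time courses was not tested. The DMSO count depended on few libraries, since 1 of 7 was called when either DMSO replicate of 8 h was left out.

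A label of 120 min collects more reads per gene, and with it SNAI2 and TWIST2 were called lower. SNAI2 had 8.46, 3.73 and 5.20 CPM with dTAGV-1 in the mitosis series, against 51.7, 39.2 and 54.5 CPM with DMSO. TWIST2 had 42.1, 42.7 and 34.3 CPM with dTAGV-1, against 67.9, 79.3 and 71.2 CPM with DMSO. Neither gene's arms overlapped. SNAI2 fell by 3.04 ± 0.26 (adjusted p = 2.38e-05, edgeR) and TWIST2 by 0.87 ± 0.14 (adjusted p = 0.00317), 2 of 7 where 2.04% of genes were called lower and 0.404% higher.

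PRRX1 had 82.4, 98.4 and 55.1 CPM with dTAGV-1 in these libraries, against 124, 158 and 99.8 CPM with DMSO. The arms were apart, and the change of −0.69 ± 0.24 was short of the threshold in the main fit (adjusted p = 0.196). It passed with the replicate number as a block (−0.71, adjusted p = 0.00359) and with no filter on low counts (−0.72, adjusted p = 0.00607). ZEB1 was at −0.22 ± 0.24, with a 95% interval of −0.70 to 0.25, and ZEB2 at 0.12 ± 0.21. SNAI1 was at 0.13 ± 0.31, with 23.8, 17.2 and 33.5 CPM with dTAGV-1 and 23.5, 19.8 and 24.6 CPM with DMSO.

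The share of a gene's reads that carry a conversion is another view of the same libraries. After 120 min of 4sU, pooled over 3 libraries, it was 69.7% for SNAI2 with dTAGV-1 and 79.2% with DMSO, 39.9% and 49.2% for TWIST2, and 38.0% and 45.9% for PRRX1. ZEB1 had 60.5% with dTAGV-1 and 62.8% with DMSO. These shares were not tested. When all reads took the place of converted reads, SNAI2 was still called in both series with 120 min of 4sU and TWIST2 in neither (adjusted p = 0.17 in the mitosis series and 0.0698 in the release series).

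In the release series, where cells were past mitosis when the drug came, SNAI2 was already on. Under dTAGV-1 it held 16.8, 16.3 and 27.0 CPM after 30 min, 18.0, 10.6 and 15.1 CPM after 60 min, 6.89, 9.57 and 7.15 CPM after 90 min, and 8.42, 5.26 and 5.53 CPM after 120 min. Under DMSO it held 19.4, 15.2 and 22.0 CPM after 30 min, 23.7, 20.8 and 33.1 CPM after 60 min, 25.1, 24.4 and 29.2 CPM after 90 min, and 29.0, 26.9 and 32.5 CPM after 120 min. The arms overlapped at 30 min, and from 60 min on every dTAGV-1 library was lower.

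SNAI2 changed by −0.04 ± 0.25 at 30 min and −0.86 ± 0.24 at 60 min (adjusted p = 0.453), then it fell by 1.70 ± 0.24 after 90 min and by 2.29 ± 0.25 after 120 min of drug (adjusted p = 0.000245 and 3.55e-06, edgeR). The change differed over time (adjusted p = 0.00944, a test that called 0.122% of genes), a call lost without dTAGV-1 replicate 2 at 120 min (adjusted p = 0.0598). Within the drug arm SNAI2 fell against its own 30 min level, by 1.18 ± 0.26 at 90 min and 1.59 ± 0.27 at 120 min (adjusted p = 0.0159 and 0.000759), the 1 of 7 called lower where 0.768% and 2.36% of genes were. In DMSO 0 of 7 were called between 30 and 120 min by edgeR, 1 of 7 had an unadjusted p under 0.05, and 2.41% of all genes were called. The replicate block called SNAI2 there (0.66, adjusted p = 0.0463).

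TWIST2 was the other gene called. Under dTAGV-1 it held 43.1, 37.6 and 41.8 CPM after 30 min, 35.0, 31.5 and 32.5 CPM after 60 min, 23.1, 28.3 and 38.8 CPM after 90 min, and 29.5, 28.6 and 34.4 CPM after 120 min. Under DMSO it held 41.7, 41.6 and 38.5 CPM, 46.1, 48.4 and 42.0 CPM, 51.6, 51.4 and 60.7 CPM, and 52.0, 46.2 and 49.0 CPM at those times. From 60 min on the arms did not overlap, with a change of −0.48 ± 0.16 at 60 min (adjusted p = 0.703), and TWIST2 fell by 0.83 ± 0.15 after 90 min and by 0.66 ± 0.15 after 120 min of drug (adjusted p = 0.00569 and 0.0221). The 90 min call was lost without dTAGV-1 replicate 1 or 2, and the 120 min call without dTAGV-1 replicate 1 or 2 or DMSO replicate 1 or 3 (adjusted p up to 0.142). Both calls were also lost with no filter on low counts (adjusted p = 0.084 at 90 min and 0.258 at 120 min) and with all reads as library size (adjusted p = 0.987 and 1), and the 120 min call when all reads were tested instead of converted ones (adjusted p = 0.0585). SNAI2 and TWIST2 are 2 of 7 called at both times, where 0.618% and 1.22% of all genes were called lower. Over 30 to 120 min SNAI2 fell by 1.22 ± 0.12 (adjusted p = 5.25e-07) and TWIST2 by 0.49 ± 0.08 (adjusted p = 0.000316), 2 of 7 where 1.86% of genes were called lower and 0.438% higher. The other 5 lay between −0.54 ± 0.24 (SNAI1) and 0.32 ± 0.17 (TWIST1), and ZEB1 was at −0.14 ± 0.13 with ZEB2 at 0.04 ± 0.10.

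**Figure D3:**
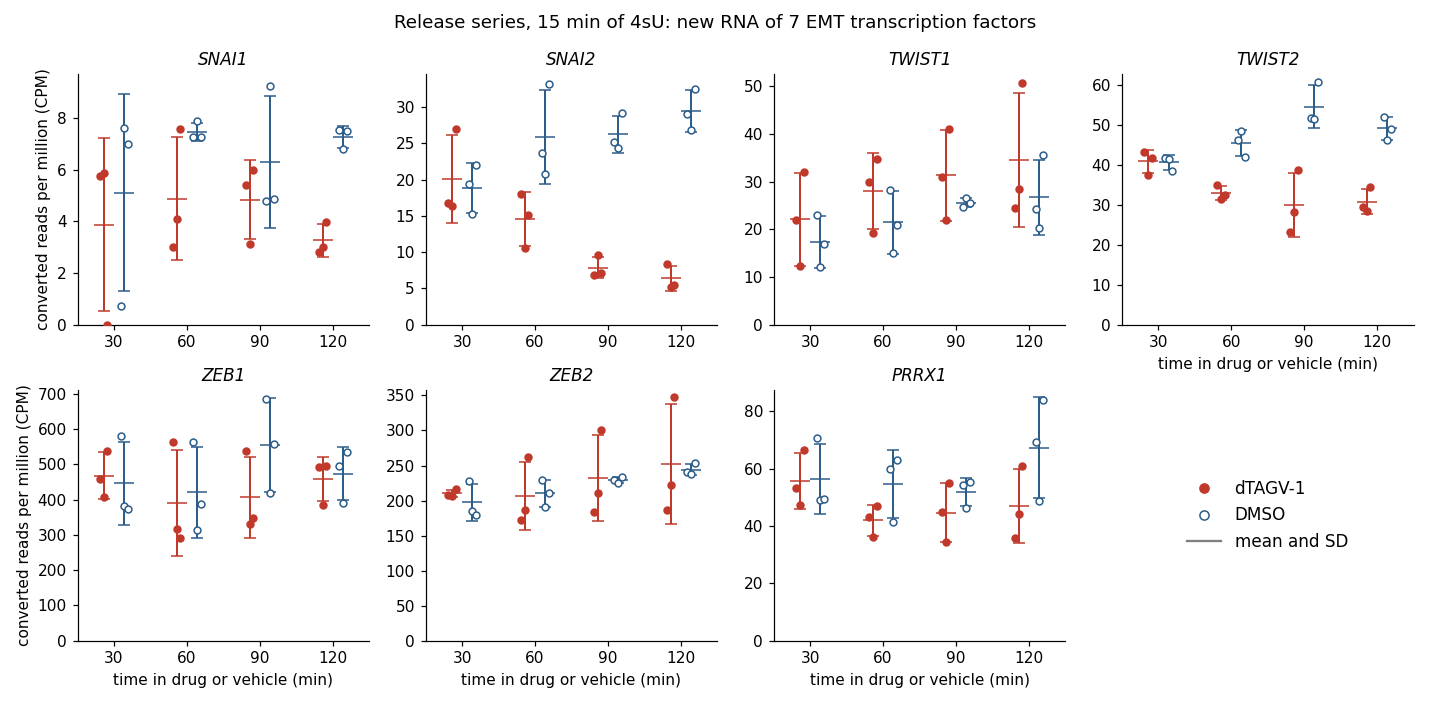
Converted reads (CPM) of the 7 genes in each release series library (15 min of 4sU), by minutes in dTAGV-1 or DMSO; points are libraries, bars the mean and SD (n = 3), with dTAGV-1 in red and DMSO in blue. SNAI2 reaches 5.26 to 8.42 CPM at 120 min with drug, against 26.9 to 32.5 with DMSO, and TWIST2 parts from DMSO at 60 min.

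With 120 min of 4sU the release series gave 14.0, 13.2 and 11.8 CPM of SNAI2 with dTAGV-1, against 52.2, 39.0 and 47.2 CPM with DMSO. TWIST2 had 40.3, 44.3 and 42.3 CPM with dTAGV-1, against 70.1, 85.6 and 92.5 CPM with DMSO. Both sets of arms were apart. SNAI2 fell by 1.83 ± 0.24 (adjusted p = 0.00137, edgeR) and TWIST2 by 0.97 ± 0.14 (adjusted p = 0.00359), again 2 of 7, where 0.646% of genes were called lower.

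Whether the drug acts differently when given from mitosis was tested as the difference of the drug effects. With 120 min of 4sU it was −1.22 ± 0.34 for SNAI2 (95% interval −1.89 to −0.55) and did not pass over all genes (adjusted p = 1, edgeR). None of the 7 passed, 1 of 7 had an unadjusted p under 0.05, and 0.00603% of all genes were called. With 15 min of 4sU it was −0.65 ± 0.29 for SNAI2, with 0 of 7 called, 2 of 7 at an unadjusted p under 0.05 and 0.0859% of all genes called. DESeq2 also called 0 of 7 in either test. The interval of TWIST2 with 120 min of 4sU, −0.29 to 0.49, spans 0. Since the 2 series differ in cell cycle state too, the timing of the drug and that state cannot be told apart.

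Cells made from WTC11 extend the comparison to neurons and cardiomyocytes. Markers of both types differed the way the titles say: the 12 cardiomyocyte markers summed to 29.9 to 37.9 CPM in neurons with dTAGV-1 and 64.9 to 67.3 CPM with DMSO, against 4481 to 4823 and 4061 to 4362 CPM in cardiomyocytes. The 12 neuron markers summed to 2535 to 2569 and 2701 to 2858 CPM in neurons, against 203 to 230 and 248 to 361 CPM in cardiomyocytes. In RPE-1 with DMSO and 120 min of 4sU they summed to 266 to 403 CPM in the mitosis series and 810 to 1658 CPM in the release series. That list is therefore not particular to neurons. The ventricular marker MYL2 had no converted read in neurons or cardiomyocytes. Markers of other cells were present too. The 6 pluripotent cell markers summed to 182 to 210 CPM in neurons with dTAGV-1 and 196 to 216 CPM with DMSO, against 151 to 178 and 141 to 161 CPM in cardiomyocytes, and to at most 8.23 CPM in RPE-1. Of these 6, only 4 were detected in each neuron library, and 5 or 6 in each cardiomyocyte library. The RPE-1 and eye field list summed to 829.4 to 844 and 872 to 930 CPM in neurons, against 2710 to 2839 and 2711 to 3072 CPM in cardiomyocytes. Of that list the N-cadherin gene CDH2 alone had 713 to 721 and 769 to 804 CPM in neurons. In cardiomyocytes CDH2 had 2021 to 2228 and 2050 to 2410 CPM, so the sum does not show that eye cells were present. CDK1 averaged 75.3 ± 0.812 CPM in neurons with dTAGV-1 and 77.6 ± 4.36 CPM with DMSO, and 48.0 ± 0.711 and 47.7 ± 14.6 CPM in cardiomyocytes (n = 2 each), scaled by library totals alone. In DMSO of RPE-1 with the same 120 min of 4sU it averaged 11.3 ± 6.43 CPM in the mitosis series and 5.97 ± 3.01 CPM in the release series (n = 3 each). The cultures thus held RNA of a mitotic kinase gene. In bulk libraries fewer cells of a type and less RNA per cell cannot be told apart.

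The 2 cell types used the factors differently. In DMSO SNAI2 had 9.05 and 8.87 CPM in neurons, against 82.2 and 42.2 CPM in cardiomyocytes, a change of −2.80 ± 0.32 (adjusted p = 0.000117, edgeR). TWIST1, TWIST2, ZEB1, ZEB2 and PRRX1 were higher in neurons, by 2.10 ± 0.23, 3.29 ± 0.31, 1.46 ± 0.11, 1.13 ± 0.21 and 3.69 ± 0.42 (adjusted p of 0.00424 or less). The ZEB2 call was lost with no filter on low counts (adjusted p = 0.0565) and with the replicate block (adjusted p = 0.0567). SNAI1 had 2.92 and 1.80 CPM in neurons and 3.17 and 3.13 CPM in cardiomyocytes, a change of −0.42 ± 0.37 that did not pass. That is 6 of 7 called, where 53.9% of all genes were, so most genes differ between these cells.

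With dTAGV-1 in cardiomyocytes SNAI2 had 13.3 and 15.0 CPM, against 82.2 and 42.2 CPM with DMSO. ZEB1 had 109 and 136 CPM with dTAGV-1, against 190 and 156 CPM with DMSO. The arms were apart for both genes, although the DMSO libraries of SNAI2 lay further apart from each other than the dTAGV-1 libraries did. SNAI2 fell by 2.13 ± 0.30 (adjusted p = 0.00568, edgeR) and ZEB1 by 0.50 ± 0.11 (adjusted p = 0.0249), 2 of 7 where 3.38% of genes were called lower and 1.28% higher. Fitted on cardiomyocytes alone, neither passed (adjusted p = 0.0976 for SNAI2 and 0.156 for ZEB1), and ZEB1 was also lost with the replicate block (adjusted p = 0.194) and without replicate 1 of dTAGV-1 or of DMSO (adjusted p = 0.0852 and 0.14).

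Markers of other cells moved with this result. In cardiomyocytes the 12 fibroblast and smooth muscle markers, all detected, summed to 500 to 533 CPM with dTAGV-1 and 758 to 779 CPM with DMSO. The 6 endothelium markers, all detected, summed to 79.1 to 106 CPM with dTAGV-1 and 159 to 164 CPM with DMSO. Of the 12 fibroblast and smooth muscle markers 2 fell, and 1, the receptor gene PDGFRA, rose (0.65, adjusted p = 0.0196, edgeR). In these cells 3.38% of all genes were called lower and 1.28% higher. Calls of single endothelium, neural progenitor and glia markers are not given. The neural progenitor and glia markers summed to 439 to 471 CPM with dTAGV-1 and 588 to 614 CPM with DMSO. SNAI2 is a gene of mesenchymal cells too, and the part of these markers in its fall was not tested.

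In neurons the repressor ZEB1 had 251 and 241 CPM with dTAGV-1, against 461 and 489 CPM with DMSO. The arms were far apart, and ZEB1 fell by 0.95 ± 0.11 (adjusted p = 0.000366, edgeR), the 1 of 7 called lower where 1.68% of genes were. ZEB2, which is known for its role in the developing nervous system, had 1309 and 1293 CPM with dTAGV-1, against 843 and 848 CPM with DMSO. The ZEB2 libraries of each arm lay close together, and the change was 0.62 ± 0.21 (adjusted p = 0.311) in the fit over both cell types and passed in neurons alone (0.62, adjusted p = 1.07e-06). SNAI2 had 4.42 and 5.08 CPM with dTAGV-1, against 9.05 and 8.87 CPM with DMSO, a change of −0.91 ± 0.43 (adjusted p = 0.486, and 0.0124 in neurons alone). Here the fibroblast and smooth muscle markers summed to 284 to 313 CPM with dTAGV-1 and 319 to 334 CPM with DMSO, and the neural progenitor and glia markers to 828.7 to 886 CPM with dTAGV-1 and 756 to 799 CPM with DMSO. Their part in the changes of ZEB1 and ZEB2 was not tested.

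**Figure D4:**
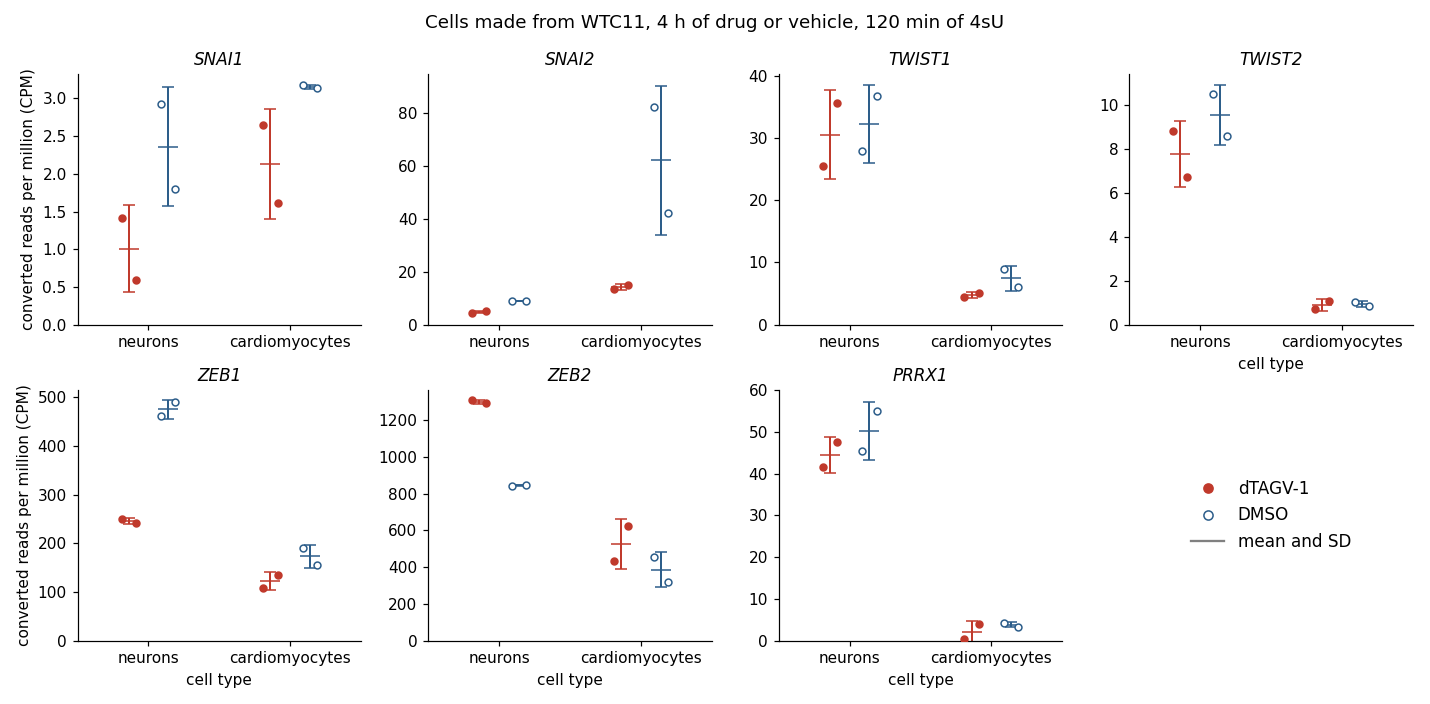
Converted reads (CPM) of the 7 genes in each library of neurons and cardiomyocytes made from WTC11 after 4 h of dTAGV-1 (red) or DMSO (blue) with 120 min of 4sU; points are libraries, bars the mean and SD (n = 2). SNAI2 is lower with drug in cardiomyocytes (13.3 and 15.0 against 82.2 and 42.2 CPM), and ZEB1 is lower with drug in both cell types.

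The difference of the drug effects between neurons and cardiomyocytes passed for 0 of 7 by edgeR, with 1 of 7 at an unadjusted p under 0.05 and 0.751% of all genes called. It was 1.23 ± 0.54 for SNAI2 (adjusted p = 0.605) and −0.45 ± 0.16 for ZEB1 (adjusted p = 0.363). The SNAI2 difference passed without cardiomyocyte DMSO replicate 2 (1.62, adjusted p = 0.00943) and with no filter on low counts (1.29, adjusted p = 0.00375). The ZEB1 difference passed without cardiomyocyte dTAGV-1 replicate 1 (−0.60, adjusted p = 0.0469).

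Set side by side in the main fits, SNAI2 was called lower in 6 of the 7 drug comparisons and had a negative change in all 7. Neurons were the exception to the calls, which depends on the fit over both cell types. SNAI2 was called in neurons fitted alone (adjusted p = 0.0124, edgeR) and with no filter on low counts (−0.92, adjusted p = 0.0129). In cardiomyocytes fitted alone it was not called (adjusted p = 0.0976). By the main fits TWIST2 was called in 4 comparisons, all in RPE-1. ZEB1 was called higher at 4 to 8 h in RPE-1 and lower in both kinds of WTC11 cells, while TWIST1 and PRRX1 were called in none. With the replicate block PRRX1 was called lower in 2, the mitosis series with 120 min of 4sU, where the numbers pair the libraries, and 4 to 8 h, where that was not shown. PRRX1 was also called lower in the former with no filter on low counts, and in the latter with all reads tested. TWIST1 was called lower in cardiomyocytes with no filter on low counts (−0.71, adjusted p = 0.0457, edgeR). There PRRX1 changed by −3.17 without dTAGV-1 replicate 2, and ZEB2 by 0.69 without dTAGV-1 replicate 1. In the main fits SNAI1 was called lower and ZEB2 higher in 1 comparison each, at 4 to 8 h. These 7 comparisons share no libraries, though the RPE-1 ones share 1 clone.

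**Figure D5:**
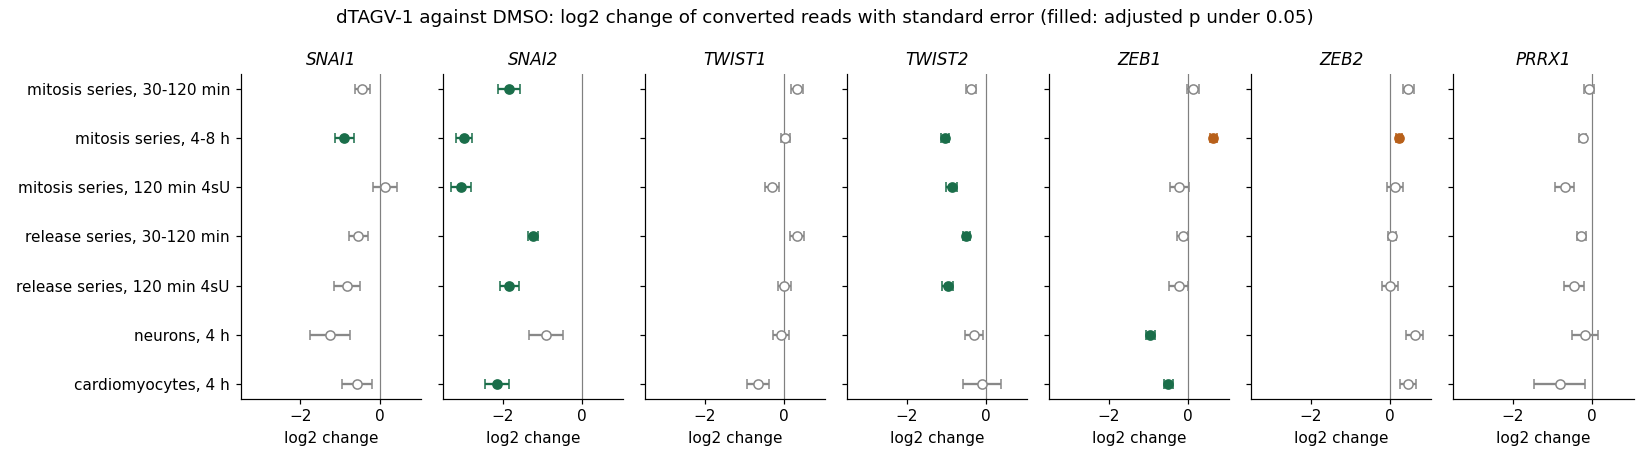
Log2 change of dTAGV-1 against DMSO with its standard error (horizontal axis) for the 7 genes in 7 comparisons (rows); filled points passed edgeR's test at an adjusted p under 0.05. SNAI2 lies left of 0 in every row, down to −3.04, and ZEB1 lies to the right at 4 to 8 h (0.63) and to the left in neurons (−0.95).

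Genes near the members were checked within 500 kb of their starts. SNAI2 had 1 tested neighbour in that range. In the mitosis series at 4 to 8 h 1 of 19 tested neighbours of the 7 genes was called, PTGIS, a prostacyclin synthase gene 415 kb from SNAI1, which fell by 0.98 ± 0.16 (adjusted p = 0.000113), a smaller share than the 11.1% of all genes called lower there. None was called among 17 neighbours over 30 to 120 min, 18 in the release series, or 23 in either series with 120 min of 4sU, where 0.746%, 1.86%, 2.04% and 0.646% of all genes were called lower.

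How alike the members ran was described over the 24 group means with 15 min of 4sU in RPE-1, in which all genes share libraries and depth. Pearson's r was 0.737 between SNAI2 and PRRX1, 0.710 between SNAI2 and TWIST2, 0.770 between ZEB1 and PRRX1 and 0.706 between TWIST1 and TWIST2. SNAI1 was at 0.230 with SNAI2 and −0.596 with TWIST1, and ZEB2 was at −0.192 with SNAI2, 0.101 with TWIST2 and 0.278 with ZEB1. Among 12415 genes those near to SNAI2 included VEGFA (0.956), an angiogenic growth factor, and LRRC17 (0.939). The nearest to SNAI1 was KLF10 (0.936), a TGF-beta early response factor, to TWIST2 ELOVL6 (0.963), a fatty acid elongase, to ZEB1 FAM196B (0.975), to ZEB2 ARHGAP12 (0.875), to PRRX1 DCBLD2 (0.890) and to TWIST1 RP1-122P22.2 (0.958).

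The wider EMT network was taken as lists. Of 15 tested other EMT factors, 8 fell and 1 rose at 4 to 8 h, where 11.1% and 9.35% of all genes did, with a median log2 change of −0.63 against 0.01 over all genes. Those that fell include RUNX2, a runt factor (−1.15), and SOX4, an HMG box factor (−0.84). Over 30 to 120 min of the mitosis series 3 fell and 2 rose, where 0.746% and 0.514% of all genes did, among them FOXC2 (−0.77) and RUNX2 (−0.67) on 1 side and ID2, an inhibitor of helix-loop-helix factors (0.84), on the other. In the release series over 30 to 120 min none of 14 was called.

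Upstream, the list of EMT inducers had 11 genes that fell and 3 that rose of 22 at 4 to 8 h (median −0.31). Of all genes 11.1% fell and 9.35% rose there, so the 3 of 22 that rose are near that share. TGFB2, a TGF-beta ligand, fell by 2.05 on the log2 scale and JAG1, a Notch ligand, by 1.21, while TGFB3 rose by 1.87. In the release series over 30 to 120 min 5 of 20 fell and none rose, where 1.86% of all genes fell, with the receptor gene TGFBR2 at −0.58 and JAG1 at −0.57. In cardiomyocytes 5 of 24 fell, where 3.38% of all genes did, TGFB2 by 1.47.

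Downstream, the epithelial genes that the members repress showed 1 call in the 7 comparisons, KRT7, a keratin (−0.68). It was 1 of 10 tested at 4 to 8 h, near the 11.1% of all genes called lower there. No tested epithelial gene was called higher where SNAI2 fell, and 10 to 14 of the 30 on the list had enough reads in RPE-1 to be tested. Of the mesenchymal genes 7 of 22 fell and 3 rose at 4 to 8 h (median −0.08), where 11.1% and 9.35% of all genes did, so the rises are near that share, with the tropomyosin gene TPM1 (−1.51) and the proteoglycan gene VCAN (−1.51) among those that fell and the matrix gene TNC (1.22) among those that rose. In cardiomyocytes 11 of 25 fell and none rose (median −0.66 against 0.01 over all genes), where 3.38% of all genes fell, led by CDH11, a cadherin (−1.92), POSTN, periostin (−1.68), and TNC (−1.46). This fall stands beside the lower sums of fibroblast and endothelium markers given above, with PDGFRA higher. The fibroblast and smooth muscle list shares PDGFRB, COL1A1, COL1A2, COL3A1, ACTA2 and TAGLN with the mesenchymal list. The falls of these lists are therefore not separate results. Of 22 tested corepressors and turnover factors of Snail and ZEB proteins, 3 fell and 2 rose at 4 to 8 h, close to the 11.1% and 9.35% of all genes.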

How the data were processed

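New RNA of 7 genes was read from 92 SLAM-seq libraries in 32 groups. Per the submitters' processing notes, the authors used HISAT, Picard and HTSeq on hg38, and order, options and strand setting are not given in the sources used here. The deposited tables give whole-number counts of converted reads and of all reads per gene, not normalised, and a conversion rate, which per the file headers is a fraction and was not used. A gene that a table does not list was taken as 0. Of 49186 genes 281 on the Y chromosome or near the X inactivation centre were left out.

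Converted reads were tested with edgeR 4.0.16 (R 4.3.3, limma 3.58.1), quasi-likelihood, two-sided, after TMM scaling and edgeR's filter (minimum count 10, total 15), with Benjamini-Hochberg adjustment over all tested genes and a threshold of 0.05. There was 1 fit each for the mitosis series to 120 min, its 4 to 8 h, both series with 120 min of 4sU, the release series, and WTC11 cells, with 13927 to 18645 genes tested, and a joint fit of both series with 15 min of 4sU over 15135 genes. All 7 genes passed the filter in each. DESeq2 1.42.0 was an alternative, beside other scalings, no filter, all reads, a replicate block and leaving out libraries. The fit was tested on simulated data. Tables and figures used data.table version 1.17.8, Python 3.11.15, pandas 2.3.3, numpy 2.4.6 and matplotlib 3.10.9.

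Members and lists were chosen with earlier results of these data known. Neighbours were tested genes within 500 kb of a start, with called ones named, likeness named the nearest 3 genes at a mean log2 CPM of at least 2, and lists named up to 3 called genes with the largest change. The text gives a selection, and some genes these rules name are not reported here. The test of drug effect between neurons and cardiomyocytes was added after seeing the data. Whether equal replicate numbers pair libraries was judged from the data alone, by a correlation above 0.1 in every one of 3 or more pairs, computed on departures from group averages. Pairs passed for the mitosis series before release (0.195 to 0.564) and under its long label (0.152 to 0.581), and for the release series after 120 min with the short label (0.238 to 0.422).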

Additional observations from a re-analysis of the deposited data

Results flagged for a closer look

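In 2 of 42 groups of 4 libraries, 7 genes in 6 groups of the mitosis series, 1 library stood far from the other 3. Chance alone does this in about 1 in 20 groups. PRRX1 had 44.0 CPM in DMSO replicate 2 at 60 min, against 34.3 to 35.2 CPM in the others, and SNAI1 had 45.7 CPM in DMSO replicate 2 at 90 min, against 25.1 to 27.7 CPM. The drug effect on SNAI2 differed between times in both series by edgeR's test of drug by time, with adjusted p = 0.0118 in the mitosis series and adjusted p = 0.00944 in the release series.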

How the results depend on the processing

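Counts of called members are given here by setting. Without the filter on low counts they were 2 at 30 to 120 min of the mitosis series and 2 in neurons (both 1 as reported). With all reads as library size they were 0 for drug by time in the mitosis series and 0 in the release series (both 1), 1 for the release average (2), 6 for 8 against 4 h in DMSO (3) and 6 for 120 against 30 min in DMSO of the release series (0). That scaling moves the median of all genes by 0.58 in the 8 h step, where ZEB1 turned to 0.53, and by 0.53 in the release step. It moves the 120 min step of the mitosis series in DMSO by 0.41. With all reads used where converted reads had been, they were 0 for 8 against 4 h in DMSO (3), 1 and 1 with 120 min of 4sU in either series (2 each), 0 for drug by time in the release series (1) and 1 in cardiomyocytes (2). Each cell type alone gave 0 in cardiomyocytes (2) and 3 in neurons (1). The replicate block gave 2 at 30 to 120 min of the mitosis series, 1 for 120 against 30 min in DMSO of the release series and 1 in cardiomyocytes, where pairing was not shown. It moved no other count by over 1.5 times. Leaving out 1 library gave 0 to 1 for drug by time in each series, 3 to 4 for 120 against 0 min in DMSO, 4 to 5 at 4 to 8 h, 1 to 3 for 8 against 4 h, 1 to 3 in cardiomyocytes (1 without DMSO replicate 1), 6 for neurons against cardiomyocytes, 2 in each 120 min label and in the release average, 1 in neurons and at 30 to 120 min, and 0 for the rest. The cause of these shifts was not tested. Over the changes of single members, 56 alternatives of 2554 lost a call, 34 gained one with the sign kept, and 148 changed the sign, of which 1, the ZEB1 step named above, had a call. Depth limits SNAI2 with dTAGV-1, with 2 to 12 converted reads at 120 min and 4 and 2 at 4 h.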

Other observations

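Some eye lineage genes rose in comparisons where SNAI2 fell. Of 7 tested genes in a list of 10 RPE-1 and eye field markers, 3 rose and none fell over 30 to 120 min of the mitosis series, where 0.514% of genes were called higher, and 4 rose and 1 fell at 4 to 8 h, where 9.35% and 11.1% did. The summed level of the list was lower with drug at those times, at 1316 to 1362 CPM with dTAGV-1 and 1796 to 2174 CPM with DMSO after 4 h, 1020 to 1081 and 1305 to 1399 CPM after 6 h, and 1001 to 1009 and 1112 to 1151 CPM after 8 h. OTX2, a homeobox factor of eye and forebrain, rose by 0.75 and then by 0.94 on the log2 scale, and PAX6, a paired box factor of the eye, rose by 0.44 over 30 to 120 min (adjusted p = 2.2e-05, 6.58e-07 and 0.00477, edgeR). CDH2, the gene of N-cadherin, which is in the mesenchymal list too, fell by 0.98 at 4 to 8 h.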
